A study of Saccharomyces cerevisiae S288C with 72 samples.

Results

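The libraries described here are the 7 taken hourly from 9 to 15 h from a strain of budding yeast, Saccharomyces cerevisiae, that lacks NDE1, NDE2 and NDI1. They are 7 of the 24 libraries of that strain and of 72 in the series. The hours were chosen on the levels of 2 hexose carrier genes in these same libraries. HXT3, for a low-affinity carrier of plentiful glucose, was high at 9, 10 and 11 h and low at 13, 14 and 15 h, and HXT7, for a high-affinity carrier, peaked between these windows. The libraries of 9 to 11 h are called the earlier window here, those of 13 to 15 h the later window, and 12 h the transition. For comparison, libraries of wild type and of a strain lacking COX4 were used. All 3 strains are of the S288C background and grew in baffled flasks in yeast nitrogen base with ammonium and 2% glucose. The series follows the 3 strains at the same times from 0 to 58 h, hourly between 4 and 16 h. No measurement of glucose was used here.

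There was 1 library per strain and hour, and no label names a replicate culture. Neighbouring hours were treated as replicates here, so p-values rest on how far the 3 hours of a window lie apart, and a steady trend within a window adds to that spread. It may be technical in part. The labels of the mutant carry a position letter that changes from C to D between 13 and 14 h, so 13 h is the only library of the later window with the letter of the earlier one. In the other strains the letter changes between the same hours, and what it stands for is not stated. Levels are TPM, a share of the library's transcripts corrected for length, rescaled to the same total over the nuclear protein-coding genes. They are shares of a library and keep no read counts, so the depth is unknown. A lower total of RNA per cell, fewer cells holding a transcript and less of that transcript per cell cannot be told apart. The deleted genes were low in all 7 libraries. NDE1 (YMR145C, chromosome XIII 554793 to 556475) did not exceed 3.24 rescaled TPM. The highest value of NDE2 (YDL085W, chromosome IV 303211 to 304848) was 0.605, and that of NDI1 (YML120C, chromosome XIII 28266 to 29807) was 2.1.

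NDE1 and NDE2 encode the external and NDI1 the internal NADH dehydrogenase of the mitochondrial inner membrane, which pass electrons from NADH to ubiquinone. Yeast has no proton-pumping complex I, so these enzymes are its main entry of NADH electrons into the respiratory chain. On glucose, yeast ferments to ethanol while Mig1 and its partners repress the genes for other carbon sources. When glucose runs out, the kinase Snf1 relieves that repression, and a respiring cell turns to ethanol by way of the glyoxylate cycle and gluconeogenesis. The Ras and protein kinase A pathway and the TOR pathway act on ribosome synthesis and on the stress factors Msn2 and Msn4 over the same change.

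The 2 genes that set the windows are given as a description. HXT3 (YDR345C, chromosome IV 1162957 to 1164660) stood at 1209.6, 1859 and 1688 at 9, 10 and 11 h, 232 at 12 h and 95.3, 145 and 166 at 13, 14 and 15 h. HXT7 (YDR342C, chromosome IV 1154216 to 1155928) stood at 306, 1276 and 3329 at 9, 10 and 11 h, 8544 at 12 h and 4298, 2672 and 1693 at 13, 14 and 15 h. HXT3 therefore had no overlap between the windows, and the library at 12 h stood just above the later one, while HXT7 was highest at 12 h and its windows overlapped.

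Over all genes, the later window differed widely from the earlier one. Of 5721 genes tested with limma, 374 (6.54%) were called higher and 2171 (37.9%) lower, at an adjusted p under 0.05 and a change of at least 2-fold, and 3752 had an unadjusted p under 0.05. The windows did not overlap for 3830 genes (66.9%). The hours were set by HXT3 in the same libraries, so these shares describe the contrast and nothing is read from them. The balance between directions depended on the scaling. The median gene stood at -0.68 on the log2 scale, and after median-of-ratios scaling, which brings the median gene to -0.01, 1002 genes (17.5%) were called higher and 948 (16.6%) lower. All 374 higher calls held under both scalings, as did 948 of the lower ones, 43.7% of them. These shares of all genes are the background for the counts of each gene list below.

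The make-up of the libraries moved at the same time. The 20 most abundant genes held 25.2 to 27.9% of the total in the earlier window, 28.9% at 12 h and 39.3 to 43.6% in the later one. CWP2, for a wall mannoprotein, led in the earlier window, DDR2, a stress gene, at 12 h, HSP30 at 13 h and CUP1-1, for the copper metallothionein, at 14 and 15 h. CUP1-1 shares its sequence with CUP1-2, and it went from 0.430 to 0.829% of the total in the earlier window to 4.43 to 7.17% in the later one. RRT15, which matches the 25S ribosomal RNA gene at 148 of its 189 bases, stood at 1798 to 2821 rescaled TPM before and 7544 to 10872 after. Its part in the results was not tested.

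The other carriers were low or high at different hours. HXT1, for the carrier of lowest affinity, was already low at 11 h, with 268, 85.0 and 24.9 at 9, 10 and 11 h, 12.6 at 12 h and 21.6, 37.8 and 55.8 at 13, 14 and 15 h. HXT4, for a carrier of intermediate affinity, was higher at each hour of the earlier window and low only after 12 h, with 276, 1337 and 3163 at 9, 10 and 11 h, 3003 at 12 h and 202, 201 and 196 at 13, 14 and 15 h. Its windows did not overlap, but 276 at 9 h was close to the later window and the difference of -2.40 (SE 0.70) was not called under median-of-ratios scaling. HXT6 (YDR343C, chromosome IV 1159608 to 1161320), the near-identical neighbour of HXT7, was highest in the later window, with 242, 944 and 2955 at 9, 10 and 11 h, 15326 at 12 h and 34691, 26417 and 14846 at 13, 14 and 15 h.

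HXT6 and HXT7 differ at 3 of 1713 coding bases, so the division of reads between them is uncertain and their sum is the safer value. The sum was 549 at 9 h, 6284 at 11 h, 23870 at 12 h, 38989 at 13 h and 16539 at 15 h. The share assigned to HXT6 was 42.5 to 47.0% in the earlier window, 64.2% at 12 h and 89.0 to 90.8% in the later one. HXT5, for a carrier linked to slow growth, was higher after the transition, with 194, 368 and 600.5 at 9, 10 and 11 h, 1501 at 12 h and 5195, 2686 and 1552 at 13, 14 and 15 h. The later window lay wholly above the earlier one, and its own highest library was the one at 13 h.

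**Figure D1:**
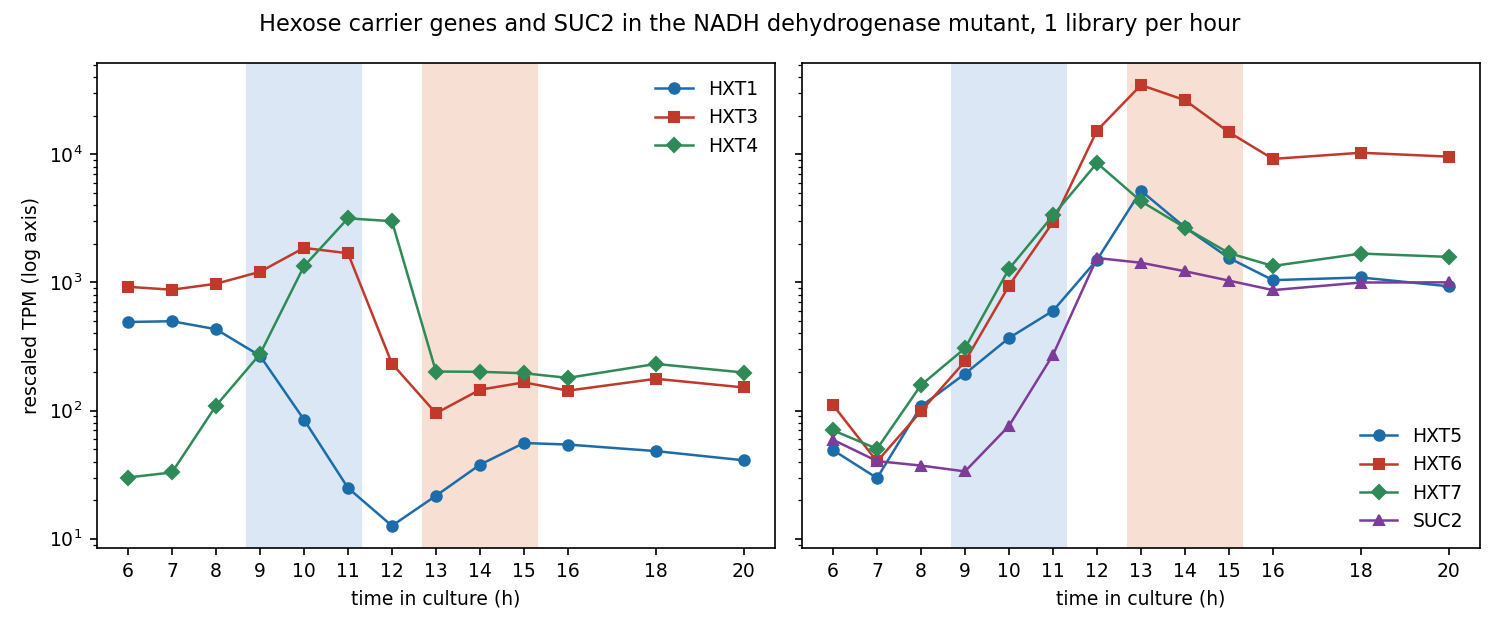
Rescaled TPM (log axis) of 6 hexose carrier genes and SUC2 against hours of culture (6 to 20 h) in the NADH dehydrogenase mutant; each point is 1 library, blue shading marks 9 to 11 h and orange shading 13 to 15 h. HXT3 was 1688 at 11 h and 232 at 12 h, HXT7 peaked at 8544 at 12 h and HXT6 at 34691 at 13 h.

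Genes under glucose repression were read beside the carriers. SUC2, for invertase and repressed by glucose, stood at 33.5, 76.0 and 272 at 9, 10 and 11 h, 1549.8 at 12 h and 1424, 1222 and 1032 at 13, 14 and 15 h, so it had reached its later level by 12 h. Its log2 difference between the windows was 3.76 (SE 0.61). SNF3, for the sensor of low glucose, was higher by 1.59 (SE 0.40). Of 16 genes for glucose sensing and repression, 1 was called higher and 6 lower, near the 6.54% and 37.9% of all genes. Under median-of-ratios scaling these became 7 and 2, where 17.5% and 16.6% of all genes were, so the direction of that list is not settled.

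HXK2, for the hexokinase that also acts in glucose repression, stood at 412, 486 and 556 at 9, 10 and 11 h, 189 at 12 h and 36.8, 59.6 and 75.2 at 13, 14 and 15 h. NRG2, for a repressor acting under Snf1, stood at 70.4, 50.6 and 42.6 at 9, 10 and 11 h, 49.7 at 12 h and 5.55, 7.58 and 5.18 at 13, 14 and 15 h, so it held its level at 12 h and was lost after it. RGT2, the sensor of high glucose, was called lower, by 1.54 on the log2 scale, but not under median-of-ratios scaling. MIG1 was not called (0.42, SE 0.45), with 24.4, 35.8 and 57.8 at 9, 10 and 11 h, 56.0 at 12 h and 99.8, 42.9 and 29.1 at 13, 14 and 15 h, a peak at 13 h. MTH1, for a corepressor of carrier genes, differed by 0.95 (SE 0.28) and was not called, although its windows did not overlap. Both MIG1 and MTH1 were called higher under median-of-ratios scaling.

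The 12 genes with the highest log2 differences, HXT3 and HXT7 apart, include genes of stationary phase, of stress and for carriers. They were picked among called genes whose windows do not overlap. SPG1 (YGR236C, chromosome VII 962530 to 962817), needed for survival in stationary phase at high temperature, stood at 13.0, 24.4 and 48.1 at 9, 10 and 11 h, 264 at 12 h and 4532, 5159 and 5917 at 13, 14 and 15 h, a log2 difference of 7.64 (SE 0.40). SPG4 (YMR107W, chromosome XIII 483014 to 483361), of the same kind, stood at 30.5, 44.8 and 76.8 at 9, 10 and 11 h, 482 at 12 h and 3674, 4669 and 3741 at 13, 14 and 15 h (6.38, SE 0.33). RGI2 (YIL057C, chromosome IX 247902 to 248396), a gene of respiratory growth, stood at 0.387, 1.75 and 2.00 at 9, 10 and 11 h, 40.1 at 12 h and 233, 321 and 265 at 13, 14 and 15 h (6.91, SE 0.31). For these 3 genes the lowest later library exceeded the highest earlier one many times over, and the library at 12 h lay between the windows.

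SIP18 (YMR175W, chromosome XIII 611016 to 611255), for a hydrophilin that protects membranes against drying, stood at 147, 341 and 452 at 9, 10 and 11 h, 2676 at 12 h and 10224, 12149 and 10269 at 13, 14 and 15 h (5.25, SE 0.39). GRE1, for a related hydrophilin, stood at 82.7, 264 and 446 at 9, 10 and 11 h, 836 at 12 h and 7894, 6129 and 6708 at 13, 14 and 15 h (5.00, SE 0.52). HSP30 (YCR021C, chromosome III 156109 to 157107), for a negative regulator of the plasma membrane proton pump, stood at 756, 1430.1 and 2051 at 9, 10 and 11 h, 5333 at 12 h and 55035, 48047 and 32429 at 13, 14 and 15 h (5.08, SE 0.39). HSP30 was the most abundant transcript at 13 h and lower in the next 2 hours, whereas SPG1 was highest at 15 h.

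Carriers for other nutrients were in the same group. JEN1, for the lactate and pyruvate carrier, stood at 13.6, 37.1 and 96.0 at 9, 10 and 11 h, 282 at 12 h and 977, 653 and 503 at 13, 14 and 15 h (4.18, SE 0.58), and ATO2, for a putative ammonia exporter, at 32.8, 79.1 and 121 at 9, 10 and 11 h, 197 at 12 h and 1841, 2673 and 2292 at 13, 14 and 15 h (5.02, SE 0.42). PHO89, for the sodium and phosphate carrier, stood at 2.22, 1.82 and 3.16 at 9, 10 and 11 h, 3.88 at 12 h and 62.3, 156 and 112 at 13, 14 and 15 h (4.95, SE 0.33), so it was still close to its earlier level at 12 h. YAT1, for a carnitine acetyltransferase, was close to it as well, with 7.56, 7.92 and 12.0 at 9, 10 and 11 h, 13.3 at 12 h and 156, 214 and 192 at 13, 14 and 15 h (4.23, SE 0.24). SSA3, a Hsp70 chaperone gene that is little used during growth, stood at 18.6, 30.6 and 39.4 at 9, 10 and 11 h, 78.1 at 12 h and 909.5, 592 and 527 at 13, 14 and 15 h (4.49, SE 0.31), and HXT6, given above, differed by 4.76 (SE 0.75).

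**Figure D2:**
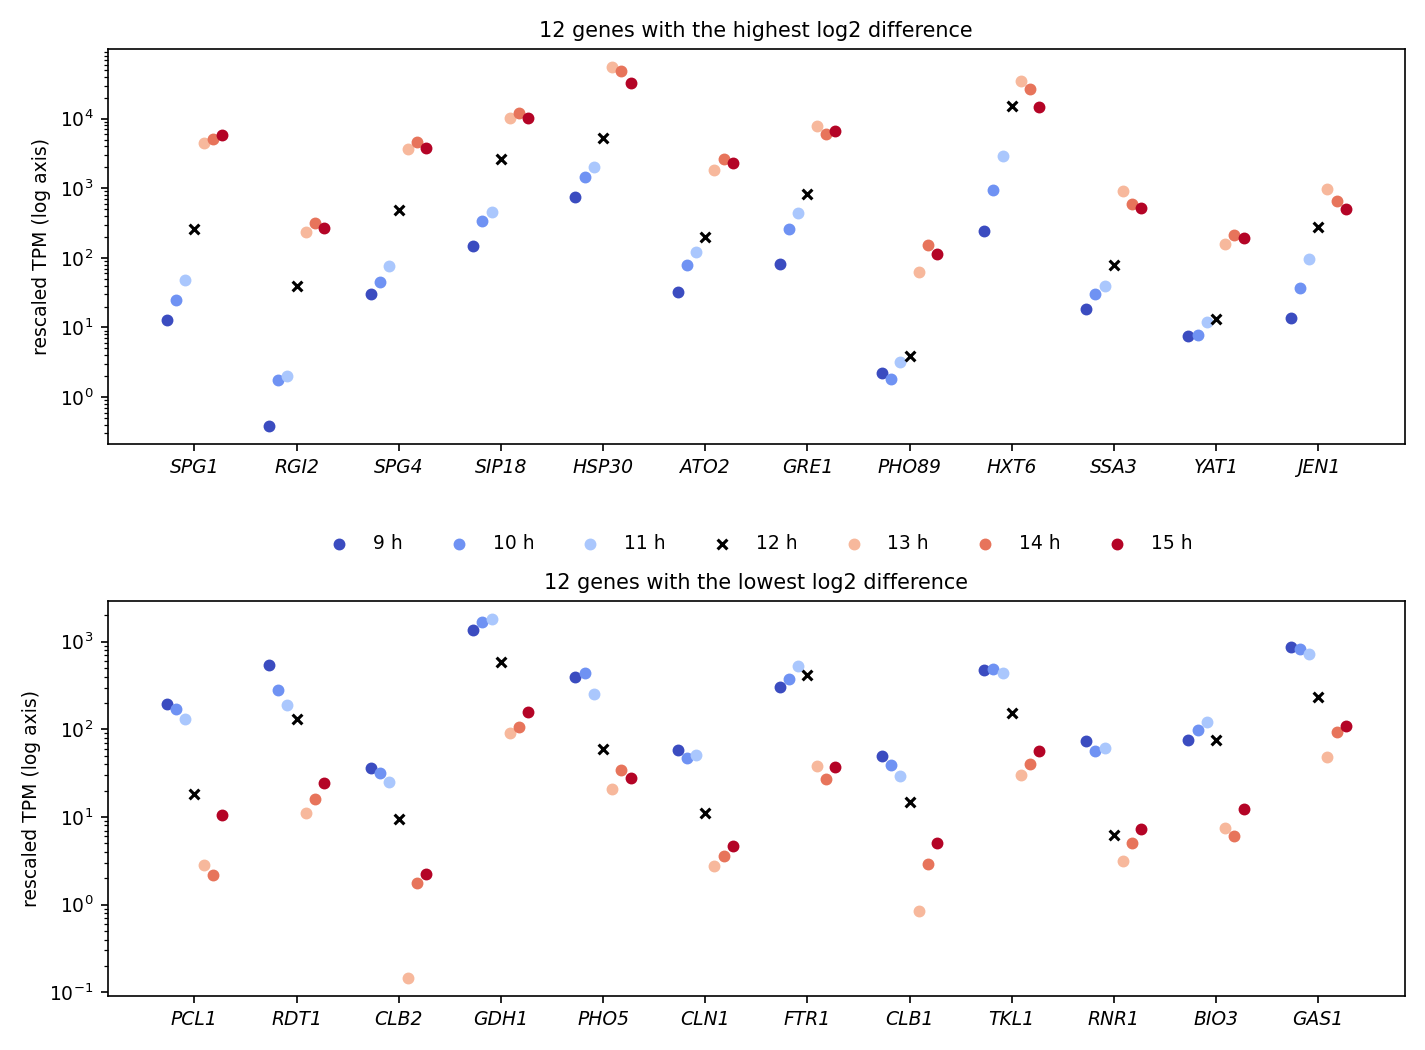
Rescaled TPM (log axis) in each of 7 libraries for the 12 genes with the highest and the 12 with the lowest log2 difference between 13-15 h and 9-11 h in the NADH dehydrogenase mutant, with 12 h as a cross. SPG1 was at most 48.1 in the earlier and at least 4532 in the later window, and PCL1 at least 131 and at most 10.6.

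The 12 lowest genes, picked in the same way, include 4 cyclin genes. PCL1 (YNL289W, chromosome XIV 87897 to 88736), for a G1 cyclin of the kinase Pho85, stood at 197, 171 and 131 at 9, 10 and 11 h, 18.4 at 12 h and 2.83, 2.15 and 10.6 at 13, 14 and 15 h (-4.99, SE 0.44). CLN1, for a G1 cyclin of the kinase Cdc28, stood at 57.7, 47.7 and 50.4 at 9, 10 and 11 h, 11.2 at 12 h and 2.77, 3.62 and 4.71 at 13, 14 and 15 h (-3.51, SE 0.23). CLB2 (YPR119W, chromosome XVI 771653 to 773128), for the main mitotic cyclin, stood at 36.6, 31.6 and 25.2 at 9, 10 and 11 h, 9.40 at 12 h and 0.146, 1.77 and 2.24 at 13, 14 and 15 h (-3.87, SE 0.37). All 3 were already well below the earlier window at 12 h and lowest at 13 or 14 h.

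CLB1, for a further mitotic cyclin, differed by -3.49 (SE 0.41), and RNR1, for the large subunit of ribonucleotide reductase, stood at 74.2, 56.5 and 61.3 at 9, 10 and 11 h, 6.30 at 12 h and 3.16, 5.09 and 7.39 at 13, 14 and 15 h (-3.44, SE 0.28). GDH1, for the glutamate dehydrogenase of growing cells, stood at 1366, 1674 and 1812 at 9, 10 and 11 h, 588 at 12 h and 90.2, 106 and 157 at 13, 14 and 15 h (-3.80, SE 0.26). TKL1, for the main transketolase, stood at 481, 486 and 436 at 9, 10 and 11 h, 155 at 12 h and 30.1, 39.9 and 56.9 at 13, 14 and 15 h (-3.48, SE 0.25), and GAS1, for a glucan-remodelling enzyme of the wall, at 874, 828 and 726 at 9, 10 and 11 h, 236 at 12 h and 48.0, 92.2 and 109 at 13, 14 and 15 h (-3.35, SE 0.31). In each of these the 12 h library had left the earlier window. FTR1, for the high-affinity iron permease, and BIO3, for a biotin synthesis enzyme, were still in or next to it, with 417 and 75.7 at 12 h. FTR1 stood at 305, 374 and 531 before and 37.9, 26.9 and 37.6 after (-3.50, SE 0.26), and BIO3 at 76.3, 99.4 and 122 before and 7.57, 5.99 and 12.3 after (-3.41, SE 0.29). RDT1, a short reading frame, had the second lowest difference (-4.14, SE 0.39), and PHO5, for the secreted acid phosphatase (-3.65, SE 0.27), completes the 12.

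The machinery of growth was lower almost throughout. Of 132 cytosolic ribosomal protein genes 131 were called lower and none higher, with a median log2 difference of -2.43, and 118 were called lower under median-of-ratios scaling. They held 17.4, 11.8 and 7.64% of the total at 9, 10 and 11 h, 5.45% at 12 h and 1.81, 2.32 and 3.72% at 13, 14 and 15 h. That share was falling through the whole earlier window, was lowest at 13 h and was higher again at 15 h. RPL13A, for a large subunit protein, stood at 294, 279 and 189 at 9, 10 and 11 h, 87.2 at 12 h and 20.6, 22.4 and 59.2 at 13, 14 and 15 h (-3.0, SE 0.38), and RPS9A, for a small subunit protein, differed by -2.98 (SE 0.39). Most of these genes have a near-identical copy, so the division of reads within a pair is uncertain.

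Ribosome assembly genes were lower too. Of 60 ribosome biogenesis genes 50 were called lower and none higher (median -1.61), and 29 under median-of-ratios scaling (median -1.03). NOP58, for a core protein of box C/D particles that modify ribosomal RNA, stood at 44.3, 45.2 and 37.4 at 9, 10 and 11 h, 12.5 at 12 h and 3.66, 4.65 and 6.93 at 13, 14 and 15 h (-2.86, SE 0.25). NOP1, for the methyltransferase of those particles, differed by -2.81 (SE 0.34). DIP2 (YLR129W, chromosome XII 399657 to 402488), for a component of the small subunit processome, stood at 10.1, 6.80 and 9.44 at 9, 10 and 11 h, 3.11 at 12 h and 0.878, 1.28 and 1.17 at 13, 14 and 15 h (-2.2, SE 0.23). DRS1 (YLL008W, chromosome XII 131729 to 133987), for a helicase of large subunit assembly, stood at 9.95, 8.38 and 5.92 at 9, 10 and 11 h, 2.15 at 12 h and 1.29, 1.11 and 2.11 at 13, 14 and 15 h (-1.85, SE 0.26). All 4 were below their earlier window at 12 h.

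The promoters of DIP2 and DRS1 are shown because this group shares 2 known promoter elements, PAC and RRPE. They were picked for the most copies among genes of the list that hold both elements and were called lower under both scalings. The windows are 300 bases long, begin 400 bases before the coding start and end 100 bases short of it. They were read from the reference genome of build sacCer3 on the strand of the gene, and capitals mark GATGAG (PAC) and AAAATTTT (the core of RRPE).
DIP2 promoter (chrXII:399257-399556, plus strand): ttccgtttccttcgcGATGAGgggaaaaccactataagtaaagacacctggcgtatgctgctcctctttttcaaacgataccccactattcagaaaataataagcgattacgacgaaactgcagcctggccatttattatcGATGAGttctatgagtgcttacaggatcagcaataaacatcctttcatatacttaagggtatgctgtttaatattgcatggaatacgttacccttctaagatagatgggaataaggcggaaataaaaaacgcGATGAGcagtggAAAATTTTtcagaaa
DRS1 promoter (chrXII:131329-131628, plus strand): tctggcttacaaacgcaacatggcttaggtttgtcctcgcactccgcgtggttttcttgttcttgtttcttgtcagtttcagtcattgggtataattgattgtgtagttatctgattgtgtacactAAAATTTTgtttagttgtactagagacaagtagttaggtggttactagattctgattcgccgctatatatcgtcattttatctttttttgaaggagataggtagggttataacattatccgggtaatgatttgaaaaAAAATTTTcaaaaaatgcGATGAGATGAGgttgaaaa
GATGAG occurred on either strand in 45 of the 60 promoters of the list (75%) and in 17.9% of 5704 promoters. AAAATTTT occurred in 49 of 60 (81.7%) and in 9.31% of all. In DRS1 the 2 copies of GATGAG overlap by 1 letter. Among genes called lower the shares were 20% and 13.9%. These are counts of letters in these windows and say nothing about the factors that bind them.

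Subunits of RNA polymerases I and III, which make ribosomal and transfer RNA, were lower in 17 of 20 (13 under median-of-ratios scaling), and none was higher. RPA135, for a large subunit of polymerase I, stood at 21.9, 20.9 and 18.8 at 9, 10 and 11 h, 6.65 at 12 h and 2.25, 2.09 and 3.70 at 13, 14 and 15 h (-2.57, SE 0.23). Of 26 translation factor genes 22 were called lower, 13 under the other scaling, and none higher. TEF4, for elongation factor 1B gamma, differed by -3.08 (SE 0.31) and YEF3, for elongation factor 3, by -2.87 (SE 0.26). Mitochondrial ribosomal protein genes did not share this pattern of counts. Of 43, 4 were called higher and 3 lower (13 and 0 under the other scaling). For all genes the shares were 6.54% higher and 37.9% lower (17.5% and 16.6% under the other scaling).

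Glycolysis was lower as a whole. Of 15 genes 14 were called lower and none higher, with a median of -2.60, the lowest of all the lists (13 and -1.85 under median-of-ratios scaling). CDC19, for the pyruvate kinase of glucose growth, stood at 3417, 3444 and 3706 at 9, 10 and 11 h, 1644 at 12 h and 340.0, 431 and 557 at 13, 14 and 15 h (-3.02, SE 0.25). FBA1, for aldolase, stood at 6708, 6731 and 7012 at 9, 10 and 11 h, 3316 at 12 h and 678, 956 and 1349 at 13, 14 and 15 h (-2.83, SE 0.29), and GPM1, for phosphoglycerate mutase, differed by -2.80 (SE 0.27). The earlier window was flat for these genes and the later one lay far below it, with 12 h between. PYK2, for the second pyruvate kinase, was the member not called, at 0.11.

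Fermentation and glycerol genes took both directions. Of 7 genes of ethanol fermentation 4 were called lower and none higher (2 and 1 under median-of-ratios scaling). PDC1, for the main pyruvate decarboxylase, stood at 5125, 5204 and 4919 at 9, 10 and 11 h, 2035 at 12 h and 488, 523 and 621 at 13, 14 and 15 h (-3.23, SE 0.23), and ADH1, for the fermentative alcohol dehydrogenase, at 4549, 5794 and 6026 at 9, 10 and 11 h, 3539.9 at 12 h and 1208, 1172 and 1535 at 13, 14 and 15 h (-2.06, SE 0.25). ADH1 and its close relatives share much sequence, so reads between them may be divided uncertainly. Of 11 genes of glycerol metabolism, 4 of synthesis or export were called lower and 2 of breakdown higher (3 and 3 under the other scaling). Over all genes 37.9% were called lower and 6.54% higher (16.6% and 17.5%), so the lower calls of the glycerol list lie near the share of all genes. GPD1, for glycerol-3-phosphate dehydrogenase, differed by -2.48 (SE 0.31) and GUT1, for glycerol kinase, by 1.98 (SE 0.34). GUT2, for the mitochondrial glycerol-3-phosphate dehydrogenase, which also feeds the respiratory chain and is intact in this strain, was higher by 1.55.

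Genes for some complexes of the respiratory chain were mostly called higher in this strain without NADH dehydrogenases. Of 13 genes for succinate dehydrogenase and cytochrome bc1 10 were called higher and none lower, with a median of 1.76, and all 13 were called higher under median-of-ratios scaling. SDH4, for a membrane anchor of succinate dehydrogenase, stood at 414, 657 and 834 at 9, 10 and 11 h, 1590.1 at 12 h and 3722, 5170.1 and 4429 at 13, 14 and 15 h (2.85, SE 0.30). SDH1 (YKL148C, chromosome XI 169207 to 171129), for its flavoprotein, stood at 57.3, 90.3 and 137 at 9, 10 and 11 h, 214 at 12 h and 611, 434 and 344 at 13, 14 and 15 h (2.32, SE 0.34). QCR8, for a subunit of cytochrome bc1, stood at 360.3, 417 and 309 at 9, 10 and 11 h, 661 at 12 h and 1498, 1976 and 1751 at 13, 14 and 15 h (2.26, SE 0.23). The later windows lay above the earlier ones in all 3 genes, and 12 h lay between.

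The promoter of SDH1 is shown with CCAAT, the letters recognised by the Hap2/3/4/5 activator of respiration, in capitals (ATTGG is the same site on the other strand). SDH1 was picked because its promoter has as many copies as any gene of this list called higher.
SDH1 promoter (chrXI:171230-171529, minus strand): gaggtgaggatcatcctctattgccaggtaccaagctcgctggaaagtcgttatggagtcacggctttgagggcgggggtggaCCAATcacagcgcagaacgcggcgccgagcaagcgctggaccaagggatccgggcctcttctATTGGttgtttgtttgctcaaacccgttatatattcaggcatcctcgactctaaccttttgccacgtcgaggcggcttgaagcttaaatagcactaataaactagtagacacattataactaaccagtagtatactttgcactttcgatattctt
CCAAT occurred in 12 of 13 promoters of this list (92.3%), in 8 of 11 of cytochrome c and its oxidase (72.7%), in 15 of 17 of ATP synthase (88.2%) and in 44.2% of 5704. Among genes called higher the share was 51.2%, and among those called lower 42.1%. HAP4, for the activating subunit of the Hap2/3/4/5 complex, was called higher, with 27.5, 47.6 and 75.2 at 9, 10 and 11 h, 96.0 at 12 h and 195, 124 and 119 at 13, 14 and 15 h (1.60, SE 0.35). In a list of 5 HAP genes it was the 1 called higher, and 2 were called lower (1 and 0 under median-of-ratios scaling). The median of that list was -0.97, and 6.54% and 37.9% of all genes were called higher and lower (17.5% and 16.6%).

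Of 11 genes for cytochrome c and its oxidase 6 were called higher and none lower, and 10 under median-of-ratios scaling. COX5A, for an oxidase subunit of aerobic cells, stood at 268, 334 and 361 at 9, 10 and 11 h, 656 at 12 h and 1701, 1700.1 and 1788 at 13, 14 and 15 h (2.44, SE 0.22). CYC7, for the minor cytochrome c, was higher by 2.38 (SE 0.23), whereas CYC1, for the major one, was not called, with 129.9, 143 and 117 at 9, 10 and 11 h, 161 at 12 h and 130.1, 82.3 and 163 at 13, 14 and 15 h. For ATP synthase the count depended on the scaling, with 1 of 17 called higher and 12 under median-of-ratios scaling, none lower under either. That 1 gene, STF2, encodes a stabiliser of the inhibited enzyme that is also a hydrophilin. TCA cycle genes were divided, with 2 of 13 called higher and 3 lower (6 and 0 under the other scaling), where 6.54% and 37.9% of all genes were. CIT3, for the minor mitochondrial citrate synthase, was the highest of them, with 11.1, 12.3 and 9.49 at 9, 10 and 11 h, 8.60 at 12 h and 87.1, 69.8 and 69.0 at 13, 14 and 15 h (2.67, SE 0.21).

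Of 11 glyoxylate cycle and gluconeogenesis genes 7 were called higher and none lower (9 and 0 under median-of-ratios scaling), several at low levels. Of 10 genes for the use of ethanol, acetate and lactate 2, JEN1 and ADY2, were called higher, 1, DLD3, was called lower and 7 were not called (7 higher and 0 lower under the other scaling). ACS1, for acetyl-CoA synthetase, stood at 24.4, 34.6 and 54.8 at 9, 10 and 11 h, 98.5 at 12 h and 390.1, 294 and 221 at 13, 14 and 15 h (3.0, SE 0.32). PCK1, for phosphoenolpyruvate carboxykinase, stood at 9.28, 12.0 and 11.7 at 9, 10 and 11 h, 13.3 at 12 h and 33.8, 32.2 and 28.6 at 13, 14 and 15 h (1.44, SE 0.21), and FBP1, for fructose-1,6-bisphosphatase, at 12.6, 18.0 and 11.3 at 9, 10 and 11 h, 16.9 at 12 h and 30.5, 28.7 and 29.7 at 13, 14 and 15 h (1.06, SE 0.22). ICL1, for isocitrate lyase, was not called, with 15.1, 18.9 and 19.8 at 9, 10 and 11 h, 24.8 at 12 h and 77.1, 24.4 and 21.9 at 13, 14 and 15 h, high in the 13 h library alone, although it was called higher under median-of-ratios scaling. ADH2, for the ethanol-oxidising alcohol dehydrogenase, was not called either, with 15.0, 24.2 and 17.8 at 9, 10 and 11 h, 10.0 at 12 h and 10.2, 8.17 and 10.8 at 13, 14 and 15 h. ADR1 and CAT8, for activators of these genes, were called higher by 2.27 (SE 0.34) and 2.08 (SE 0.30).

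Of 14 genes of fatty acid oxidation and the carnitine shuttle 9 were called higher and none lower (10 and 0 under the other scaling). CRC1, for the mitochondrial carnitine carrier, stood at 5.45, 11.6 and 14.1 at 9, 10 and 11 h, 31.4 at 12 h and 159.6, 148 and 127 at 13, 14 and 15 h (3.77, SE 0.31), and POT1, for peroxisomal thiolase, at 9.84, 23.5 and 52.9 at 9, 10 and 11 h, 99.6 at 12 h and 359, 227 and 194 at 13, 14 and 15 h (3.38, SE 0.50). ADY2, for an acetate carrier, stood at 2.25, 3.43 and 2.91 at 9, 10 and 11 h, 3.69 at 12 h and 48.4, 37.6 and 35.8 at 13, 14 and 15 h (3.43, SE 0.23). ADY2 was flat up to 12 h, whereas CRC1 and POT1 were climbing through the earlier window.

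Of 15 hydrophilin and stationary phase genes 11 were called higher and none lower, with a median of 2.11 (14 and 2.84 under median-of-ratios scaling). Together they held 1.18 to 1.65% of the total in the earlier window, 3.28% at 12 h and 8.06 to 11.6% in the later one. Of 34 targets and genes of Msn2 and Msn4, 12 were called higher, 3 lower and 19 not called (24, 1 and 9 under the other scaling). SPI1 (YER150W, chromosome V 468370 to 468816), for a wall protein of stationary phase, stood at 835, 2210.5 and 3619.8 at 9, 10 and 11 h, 6282 at 12 h and 23100.1, 29907 and 37053 at 13, 14 and 15 h (3.97, SE 0.48). HSP26, for a small heat shock protein, stood at 3761, 10220.2 and 13796 at 9, 10 and 11 h, 21872 at 12 h and 18904, 16873 and 19567 at 13, 14 and 15 h (1.19, SE 0.44), so most of its increase lay between 9 and 12 h. HSP12, for a membrane hydrophilin, was not called (0.86, SE 0.28), though it was under median-of-ratios scaling. MSN2 and MSN4 themselves were among the 3 lower ones, by 2.13 and 1.52 on the log2 scale, MSN4 not under median-of-ratios scaling.

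The promoters of SIP18 and SPI1 are shown because both genes were among the strongest gains and carry the stress response element AGGGG, which here lies on the other strand and so reads CCCCT in capitals.
SIP18 promoter (chrXIII:610616-610915, plus strand): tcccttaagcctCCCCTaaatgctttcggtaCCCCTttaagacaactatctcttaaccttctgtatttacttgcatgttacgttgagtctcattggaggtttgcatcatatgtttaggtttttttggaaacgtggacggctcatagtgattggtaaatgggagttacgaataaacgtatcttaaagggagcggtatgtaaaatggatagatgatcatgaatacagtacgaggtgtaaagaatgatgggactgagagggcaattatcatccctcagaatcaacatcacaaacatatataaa
SPI1 promoter (chrV:467970-468269, plus strand): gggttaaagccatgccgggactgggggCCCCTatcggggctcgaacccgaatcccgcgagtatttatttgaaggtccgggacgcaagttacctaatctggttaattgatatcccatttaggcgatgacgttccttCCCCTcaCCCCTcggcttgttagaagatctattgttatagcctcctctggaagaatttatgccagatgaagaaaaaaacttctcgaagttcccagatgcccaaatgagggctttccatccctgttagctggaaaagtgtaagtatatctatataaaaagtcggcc
AGGGG occurred in 2 and 3 copies here, numbers on which these promoters were picked. It occurred in 28 of 34 promoters of the Msn2 and Msn4 list (82.4%), a list of known targets, and in 24% of 5704. It occurred in 38.9% of the promoters of genes called higher and 17.6% of those called lower. Of 15 hydrophilin and stationary phase promoters 6 (40%) held it.

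Chaperone genes of Hsf1 took both directions. Of 21, 4 were called higher and 3 lower (11 and 2 under the other scaling), where 6.54% and 37.9% of all genes were (17.5% and 16.6%). SSA2, for a Hsp70 of growing cells, stood at 923, 998 and 1113 at 9, 10 and 11 h, 663 at 12 h and 143, 121 and 158 at 13, 14 and 15 h (-2.84, SE 0.22), opposite to SSA3. BTN2, for a sorting factor of misfolded proteins, was higher by 2.12 (SE 0.19). HSP104, for a disaggregase, was not called. GPH1, for glycogen phosphorylase, stood at 235, 504 and 694 at 9, 10 and 11 h, 681 at 12 h and 197, 139.6 and 153 at 13, 14 and 15 h, highest at 11 and 12 h. Of 18 genes for trehalose and glycogen 1 was called higher and 5 lower, where 6.54% and 37.9% of all genes were. These became 7 and 0 under median-of-ratios scaling, so that direction is not settled.

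Isoenzymes of a pair moved in opposite directions in several cases. GDH3, for the glutamate dehydrogenase of poor carbon sources, stood at 40.0, 82.5 and 148 at 9, 10 and 11 h, 211 at 12 h and 825, 975 and 936 at 13, 14 and 15 h (3.51, SE 0.40), against -3.80 for GDH1. TKL2, for the minor transketolase, stood at 67.3, 263 and 498 at 9, 10 and 11 h, 1080.0 at 12 h and 1179, 581 and 502 at 13, 14 and 15 h (1.75, SE 0.64), against -3.48 for TKL1, and most of its gain came before 13 h. GPX1, for a glutathione peroxidase, was higher by 2.50 (SE 0.24) and TSA2, for a minor peroxiredoxin, by 2.16 (SE 0.36), while TSA1, for the major one, was lower by 1.40, though not called so under median-of-ratios scaling. How reads were divided between members of a pair was not tested.

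Cyclin genes and mitotic regulators were mostly called lower. Of 11 genes for G1 and S cyclins and Start 8 were called lower and none higher (4 and 1 under median-of-ratios scaling). Of 14 mitotic regulators 12 were called lower and none higher (9 and 1). SWI5, for a factor of late mitosis, stood at 13.2, 10.8 and 8.60 at 9, 10 and 11 h, 4.80 at 12 h and 0.457, 0.850 and 1.52 at 13, 14 and 15 h (-2.63, SE 0.27). Histone genes were called lower in 5 of 10, where 37.9% of all genes were, and in none of 10 under the other scaling. Daughter cell separation genes were mostly not called, with 1 of 11 called lower and none higher (0 and 2 under the other scaling). CTS1, for the chitinase that parts mother and daughter, stood at 1088, 1669 and 1592 at 9, 10 and 11 h, 920.1 at 12 h and 969.9, 1666 and 1658 at 13, 14 and 15 h.

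The wall, membrane and biosynthetic genes were mostly called lower in rescaled TPM, and fewer of them under median-of-ratios scaling. Over all genes 37.9% were called lower and 6.54% higher (16.6% and 17.5% under the other scaling). Of 23 wall protein and glucanase genes 14 were called lower and 1 higher (8 and 2 under the other scaling). CWP2 stood at 29926, 34127 and 33650.0 at 9, 10 and 11 h, 14483 at 12 h and 3148, 4541 and 5461 at 13, 14 and 15 h (-2.93, SE 0.28). Of 25 ergosterol genes 18 were called lower and none higher (12 and 3). ERG3, for a sterol desaturase, stood at 872, 1146 and 1357 at 9, 10 and 11 h, 1133 at 12 h and 138, 116 and 149 at 13, 14 and 15 h (-3.04, SE 0.24), and ERG5, for another, at 240.1, 284 and 315 at 9, 10 and 11 h, 329.8 at 12 h and 36.6, 32.2 and 36.5 at 13, 14 and 15 h (-2.95, SE 0.19). Both were at their highest about the transition and low from 13 h on.

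Of 43 genes of amino acid synthesis 32 were called lower and 1, GDH3, higher (25 and 3), where 37.9% and 6.54% of all genes were (16.6% and 17.5%). BAT1, for the mitochondrial branched-chain aminotransferase, differed by -3.18 (SE 0.24) and LEU2, for a leucine synthesis enzyme, by -2.85 (SE 0.23). Sulfate assimilation was lower in 17 of 20 (7 under the other scaling), with SAM2, for S-adenosylmethionine synthetase, at 941, 817 and 684 at 9, 10 and 11 h, 351 at 12 h and 87.4, 112 and 149 at 13, 14 and 15 h (-2.82, SE 0.26). Purine synthesis was lower in 13 of 16 (9), led by GUA1, for GMP synthase (-2.41, SE 0.27).

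Of 16 genes for thiamine and biotin 9 were called lower and none higher (7 and 1). VHT1, for the biotin carrier, stood at 198, 281 and 331 at 9, 10 and 11 h, 369.9 at 12 h and 59.4, 24.6 and 25.9 at 13, 14 and 15 h (-2.94, SE 0.35), so it was highest at 12 h and lowest at 14 h. Iron genes were called in both directions. FIT3, for a wall mannoprotein that retains siderophores, stood at 1121, 3025 and 7533 at 9, 10 and 11 h, 11137 at 12 h and 14819.5, 25124 and 26679 at 13, 14 and 15 h (2.87, SE 0.59), while FET3, the oxidase partner of the permease FTR1, stood at 339, 501 and 716 at 9, 10 and 11 h, 743 at 12 h and 204, 156 and 142 at 13, 14 and 15 h (-1.58, SE 0.30), a call lost under median-of-ratios scaling. Of 25, 4 were called higher and 9 lower (4 and 4), a share of lower calls near the 37.9% of all genes. Of 18 phosphate genes 11 were lower and PHO89 alone was higher (6 and 2), and PHO84, for the main phosphate carrier, was lower by 2.2 on the log2 scale.

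Of 24 nitrogen genes 4 were called higher and 10 lower (7 and 6), where 6.54% and 37.9% of all genes were. GAP1, for the general amino acid permease, differed by -2.54 (SE 0.34) and MEP2, for an ammonium permease, by -2.40 (SE 0.32), while BAP2, for a branched-chain amino acid permease, was higher by 2.19 (SE 0.30). Proteasome genes were called lower in 6 of 33 and higher in none (0 and 4 under median-of-ratios scaling), and autophagy genes higher in 4 of 27 and lower in 2 (10 and 1). ATG8, whose protein is joined to the autophagosome membrane, stood at 153, 163 and 120.3 at 9, 10 and 11 h, 169.7 at 12 h and 292, 462 and 439 at 13, 14 and 15 h (1.43, SE 0.25). Among genes of the protein kinase A and TOR pathways, IRA2, for a negative regulator of Ras, was the sole higher call of 19, 3 being lower (6 and 1 under the other scaling), with 6.42, 5.90 and 8.68 at 9, 10 and 11 h, 8.37 at 12 h and 30.9, 34.1 and 29.0 at 13, 14 and 15 h (2.03, SE 0.22).

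**Figure D3:**
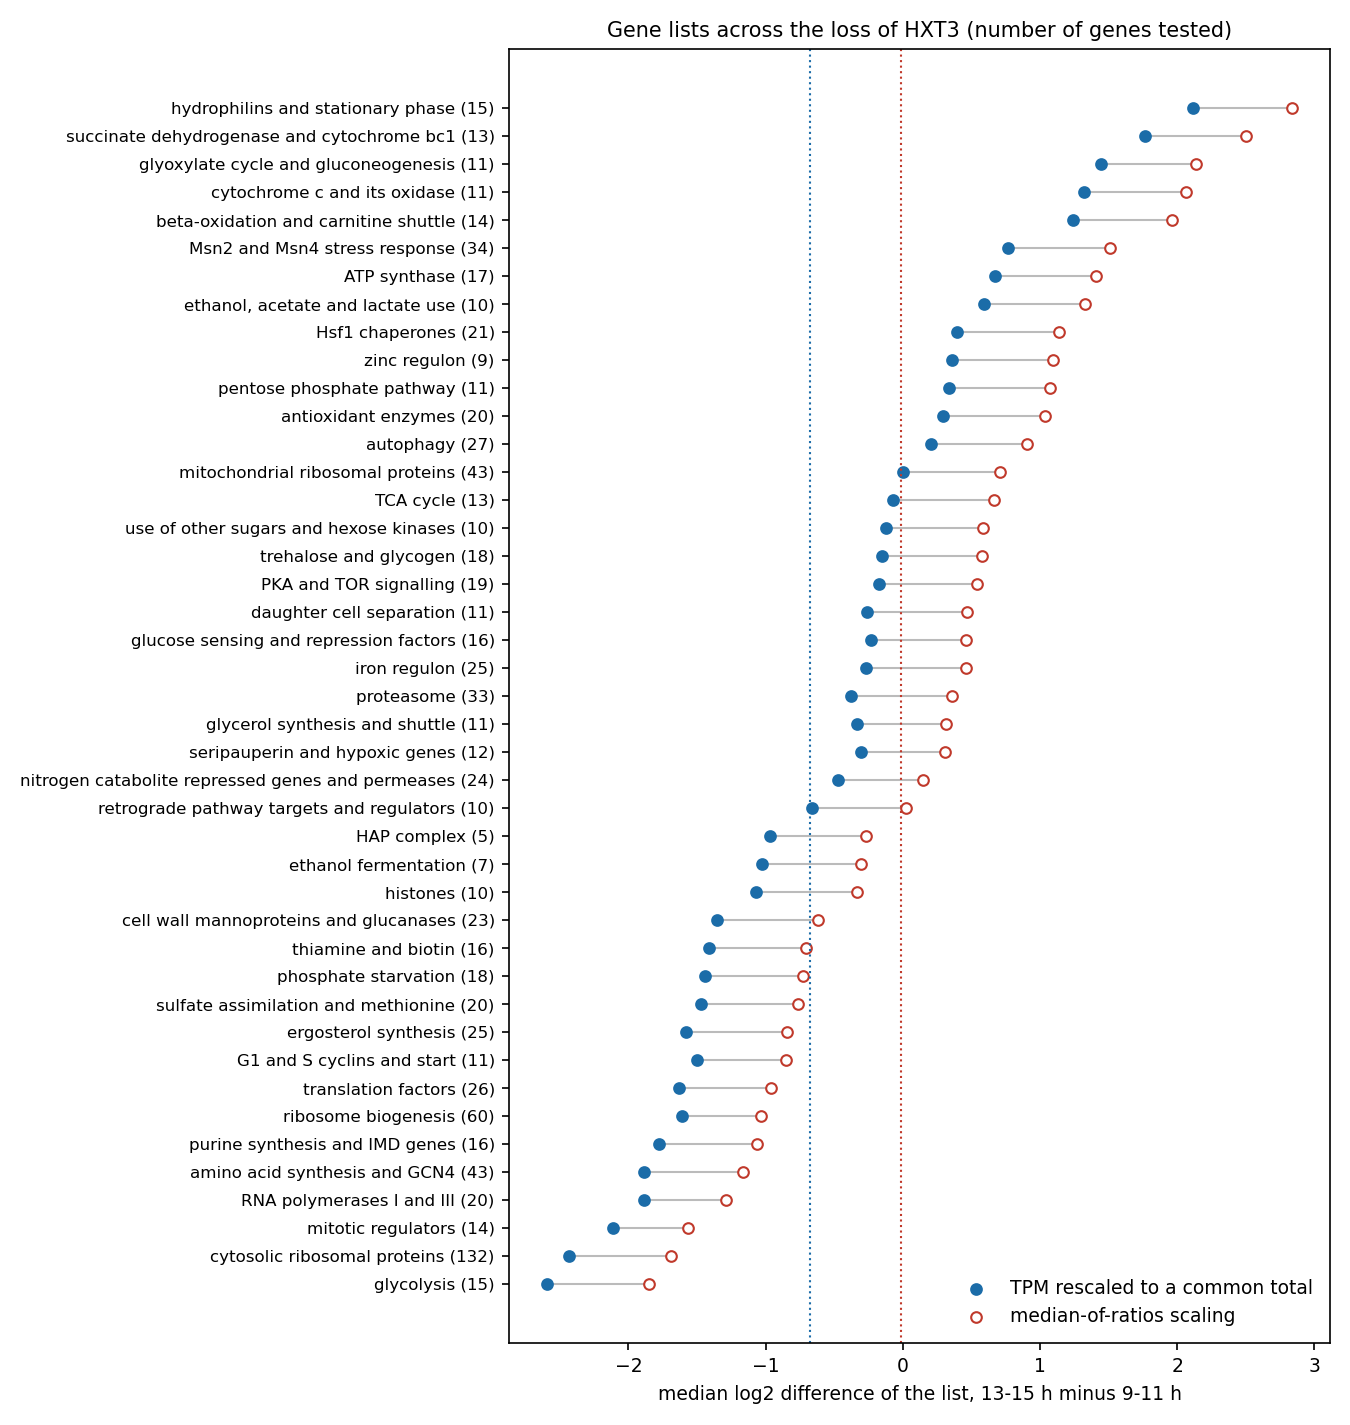
Median log2 difference between 13-15 h and 9-11 h for each gene list in the NADH dehydrogenase mutant other than those of the deleted genes and of the carriers that set the hours, with TPM rescaled to a common total (filled) and under median-of-ratios scaling (open); dotted lines are the medians of all 5721 genes, -0.68 and -0.01. Glycolysis was lowest (-2.60 and -1.85) and the hydrophilin and stationary phase list highest (2.11 and 2.84).

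At 12 h, in rescaled TPM, genes called higher lay farther towards the later window than genes called lower. On a scale from 0, the mean of the earlier window, to 1, that of the later one, the median place at 12 h was 0.47 for genes called higher and 0.31 for genes called lower. Past the midpoint were 169 of the 374 higher genes (45.2%) and 463 of the 2171 lower ones (21.3%). YAT1 and PHO89 were at 0.12 and 0.11, SUC2 was at 1.09 and RNR1 at 0.92. These values rest on 1 library. The level of the median gene was 23.89, 25.5 and 25.04 rescaled TPM at 9, 10 and 11 h. It was 23.17 at 12 h and 18.34, 14.88 and 14.54 at 13, 14 and 15 h. Most of the fall of the median gene thus came after 12 h. Whether the contrast between higher and lower genes at 12 h holds under median-of-ratios scaling was not tested.

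Over the 7 libraries 4199 genes reached a mean level of 10 rescaled TPM. Of these, 454 were above and 138 below all the other 6 libraries at 12 h. Past them by at least 2-fold were 2 above and 2 below. The 2 above were HXK1, for the hexokinase of poor carbon sources, with 815, 2072 and 4144 at 9, 10 and 11 h, 9199 at 12 h and 2877, 1549 and 1539 at 13, 14 and 15 h, and MAL33, for a maltose activator, with 9.93, 24.1 and 34.1 at 9, 10 and 11 h, 84.2 at 12 h and 40.8, 22.5 and 15.1 at 13, 14 and 15 h. The 2 below were PUT1, for proline oxidase, with 69.4, 83.2 and 76.1 at 9, 10 and 11 h, 28.4 at 12 h and 266, 143 and 132 at 13, 14 and 15 h, and NPL3, for an mRNA-binding protein of splicing and export, with 98.2, 80.0 and 70.4 at 9, 10 and 11 h, 32.1 at 12 h and 83.6, 113 and 128 at 13, 14 and 15 h. HXK1 was not called between the windows (-0.01, SE 0.53), which lie on either side of this peak. ERG28, for a scaffold of ergosterol synthesis, stood at 510.3, 422 and 431 at 9, 10 and 11 h, 893 at 12 h and 182, 141 and 139.6 at 13, 14 and 15 h, above every other library of the 7 at 12 h.

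**Figure D4:**
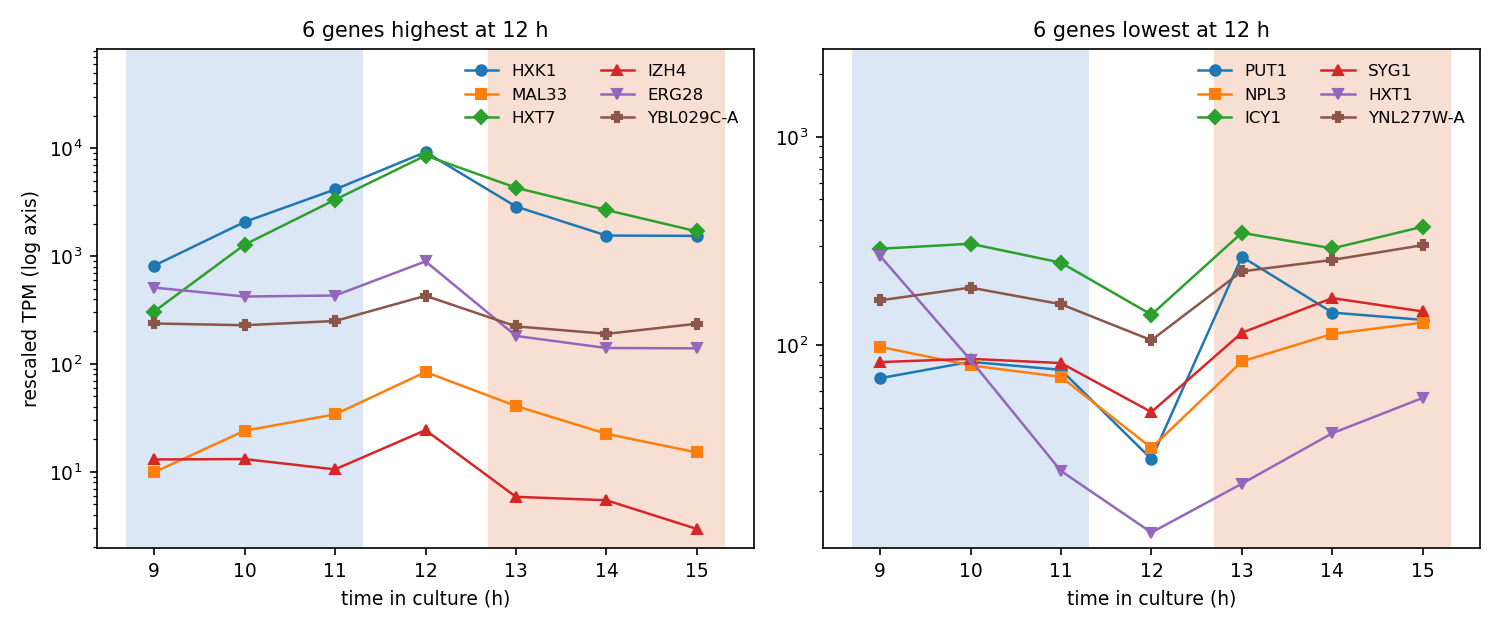
Rescaled TPM (log axis) against hours of culture for the 6 genes that stood highest and the 6 that stood lowest at 12 h relative to the nearest of the other 6 libraries; each point is 1 library, blue and orange shading mark the windows. HXK1 reached 9199 and PUT1 28.4 at 12 h.

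The same genes were then read in 6 libraries of the strain that the choice of hours did not use, 16, 18 and 20 h against 6, 7 and 8 h. There, limma called 591 genes (10.3%) higher and 2613 (45.7%) lower, and 1300 (22.7%) and 1181 (20.6%) under median-of-ratios scaling. Called in both contrasts were 337 higher genes, 90.1% of the 374 and 57% of the 591, and 1982 lower genes, 91.3% of the 2171 and 75.9% of the 2613. No gene called higher was called lower in the outer hours, and 2 called lower, HXT4 and GPH1, were called higher there. These libraries are earlier and later points of the same course of 1 strain, not a repeat of it. Their position letter is C at 6, 7 and 8 h and D at 16, 18 and 20 h, so the letter and the window cannot be told apart in this contrast.

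SPG1 stood at 13.3, 9.27 and 13.4 at 6, 7 and 8 h and at 7763, 6761 and 7549 at 16, 18 and 20 h, a difference of 9.16 (SE 0.18, adjusted p = 1.5e-10). SIP18 stood at 49.7, 15.9 and 52.4 and then 18582, 10117 and 12012 (8.52, SE 0.47, adjusted p = 2.5e-06). SPI1 differed by 7.27 (SE 0.40, adjusted p = 1.4e-06) and SDH4 by 3.32 (SE 0.19, adjusted p = 2.0e-07). PCL1 stood at 135, 174 and 219.9 and then 8.44, 5.16 and 5.05 (-4.62, SE 0.23, adjusted p = 1.0e-07). HSP30 stood at 21266, 18401 and 14843 at 16, 18 and 20 h, each below its 3 libraries of 13 to 15 h.

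PHO5 and BIO3, among the 12 lowest genes, were not called in the outer hours (-0.98 and -1.05). HXT4 took the opposite direction there, with 30.0, 32.9 and 109 and then 179.9, 231 and 198 (2.06, SE 0.47, adjusted p = 0.00526). HSP26 differed by 5.46 (SE 0.63, adjusted p = 2.4e-04) and GPH1 by 2.13 (SE 0.60, adjusted p = 0.0159). Among the lists, 132 of 132 cytosolic ribosomal protein genes were lower, where 45.7% of all genes were. Called higher were 12 of 13 genes of succinate dehydrogenase and cytochrome bc1, 13 of 15 hydrophilin and stationary phase genes and 27 of 34 Msn2 and Msn4 genes, where 10.3% of all genes were. Some lists took another balance there. Trehalose and glycogen went from 1 higher and 5 lower of 18 to 9 higher and 0 lower, and the zinc regulon from 1 and 3 of 9 to 2 and 1.

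Wild type at the same hours still held most of its HXT3, with 1051, 1760.5 and 1854 at 9 to 11 h and 2083, 1644 and 837 at 13 to 15 h. Between those hours limma called 1 gene higher (0.0175%), the zinc-regulated ZPS1, and 1 lower (0.0175%), HUG1, while 1009 had an unadjusted p under 0.05. Those wild-type counts rest on single libraries. They were 56 and 54 without 13 h, 8 and 4 without 11 h, 5 and 4 without 9 h, 1 and 3 without 10 h and 0 and 0 without 14 or 15 h. The change in the mutant minus that in wild type, tested as an interaction in limma, was called above 0 in 213 genes (3.72%) and below 0 in 1753 (30.6%), and in 677 (11.8%) and 463 (8.09%) under median-of-ratios scaling. The hours were set by HXT3 in these mutant libraries, while wild type had not yet lost its own. These differences and their p-values are therefore not independent of the choice of hours, and they describe the contrast at those hours.

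SPG1 had the largest such difference upward, 5.52 (SE 0.72, adjusted p = 5.4e-04), with 56.0, 54.3 and 122 in wild type at 9 to 11 h and 179, 251 and 696 at 13 to 15 h. PHO89 differed by 4.36 (SE 0.44, adjusted p = 1.5e-04) and ATO2 by 3.88 (SE 0.58, adjusted p = 7.3e-04). FTR1 had the largest downward, -4.63 (SE 0.45, adjusted p = 1.5e-04), where wild type stood at 175, 302 and 368 and then 614, 799 and 420.5. ERG3 differed by -3.99 (SE 0.43, adjusted p = 1.9e-04), with 2244, 2532 and 1532 in the later hours of wild type. The difference was called above 0 in 10 of 13 genes of succinate dehydrogenase and cytochrome bc1. The same held for 8 of 14 of fatty acid oxidation and 10 of 15 of the hydrophilin list, where 3.72% of all genes were. Under median-of-ratios scaling these counts were 12, 9 and 10, where 11.8% of all genes were. It was called below 0 in 12 of 16 thiamine and biotin genes, 14 of 15 of glycolysis and 16 of 25 of ergosterol synthesis. For cytosolic ribosomal proteins it was so in 101 of 132, where 30.6% of all genes were. The medians of these lists in wild type were 0.35, -0.16, -0.03 and -0.66, so wild type did not fall in each of them. Under median-of-ratios scaling the 4 counts became 7, 11, 11 and 12, where 8.09% of all genes were called below 0. The 12 of 132 ribosomal protein genes lie near that share, so their difference from wild type depends on the scaling.

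The comparison with each strain across its own loss of HXT3 set the mutant against wild type at 16, 18 and 20 h and at 12, 13 and 14 h. Wild-type HXT3 stood at 2576, 2083 and 1644 and then at 78.8, 58.1 and 61.1. HXT3 in the libraries of wild type chose those hours as well, and the hours of the later window are spaced more widely there. The position letter of wild type is A at 12 and 13 h and B from 14 h on. The change in the mutant minus that in wild type was called above 0, here more upward, in 204 genes (3.57%). It was called below 0, here more downward, in 1605 (28.1%). Under median-of-ratios scaling these were 587 (10.3%) and 418 (7.31%).

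The change of most gluconeogenesis genes was less upward in the mutant than in wild type. The median of the list was 1.44 in the mutant and 3.19 in wild type, upward in both. ICL1 stood at 34.2, 28.8 and 51.2 and then 1055, 1863 and 2542 in wild type, against 15.1, 18.9 and 19.8 and then 77.1, 24.4 and 21.9 in the mutant, a difference of -4.57 (SE 0.59, adjusted p = 3.1e-04). PCK1 reached 722, 1867 and 1764 in wild type (-4.35, SE 0.46, adjusted p = 1.3e-04), FBP1 872, 1862 and 1385 (-4.40, SE 0.38, adjusted p = 4.8e-05) and ADH2 123, 334 and 337 (-4.30, SE 0.45, adjusted p = 1.3e-04). Of the 11 genes of the glyoxylate cycle and gluconeogenesis 8 had a difference called below 0 and 1, CAT8, above 0 (6 and 2 under the other scaling). ACS1 was not called, with 0.07 (SE 0.43, adjusted p = 0.899).

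Of 15 hydrophilin and stationary phase genes 10 changed more upward in the mutant and none more downward, and of 34 Msn2 and Msn4 genes 14 and 2 (21 and 0 under median-of-ratios scaling). GRE1 in wild type was already at 1931, 2392 and 4510.4 before and 4677, 5195 and 7535 after, against 82.7, 264 and 446 before and 7894, 6129 and 6708 after in the mutant. The later windows overlapped and the earlier ones did not, and the difference of change was 3.95 (SE 0.68, adjusted p = 0.00103). SUC2 in wild type stood at 63.5, 76.8 and 269 and then 177, 78.4 and 70.3, with 389 at 15 h (3.90, SE 0.98, adjusted p = 0.00875). Ribosome biogenesis genes changed more downward in 46 of 60 (25 under the other scaling), with a median change of -0.01 in wild type. Cytosolic ribosomal protein genes did so in 124 of 132 (17), where 28.1% of all genes did (7.31%).

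For succinate dehydrogenase and cytochrome bc1 the list median was 1.59 in wild type across its own loss of HXT3 and 1.76 in the mutant, and 1 of 13 genes differed between the strains. For cytochrome c and its oxidase the medians were 1.47 and 1.32, with 1 of 11 called. The medians of all genes were -0.10 in wild type and -0.68 in the mutant. Under median-of-ratios scaling the median difference between the strains was 0.68 for the first list, with 1 gene called higher and 0 lower. It was 0.55 for the second, with 2 higher and 1 lower. Few calls do not show that the strains changed alike. The difference for SDH1 was -0.56 (SE 0.42, adjusted p = 0.284) and for COX5A 0.28 (SE 0.27, adjusted p = 0.419).

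The strain lacking COX4, for a subunit of cytochrome c oxidase, blocks the chain at its end rather than at its start. It was read at 14, 15 and 16 h against 10, 11 and 12 h, hours likewise chosen on its own HXT3, around a fall of HXT3 from 964, 1708 and 1822 to 62.7, 71.0 and 95.2. In that strain the position letter changes with the window, so the letter and the window cannot be told apart there. Of 5721 genes limma called none (0%) as changed more upward in the NADH dehydrogenase mutant, with 58 at an unadjusted p under 0.05, and 1 (0.0175%) more downward, with 38. Under median-of-ratios scaling the counts were 0 and 4 (0.0699%), and the 1 became 3 without the 12 h library of the strain lacking COX4 and 2 without its 14 h or 16 h library or the 13 h library of the NADH dehydrogenase mutant. The median difference between the strains was 0.05 with a median SE of 0.36, and 72 genes (1.26%) differed by at least 1 on the log2 scale.

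That gene was YNR071C, on chromosome XIV from 770440 to 771468, a putative epimerase, which stood at 4.93, 4.52 and 6.74 at 9, 10 and 11 h, 9.94 at 12 h and 20.7, 17 and 15.8 at 13, 14 and 15 h in the NADH dehydrogenase mutant. In the strain lacking COX4 it was 3.54, 5.35 and 3.96 and then 167, 108 and 96.7, a difference between the strains of -2.97 (SE 0.35, adjusted p = 0.00329). HXT13, for a polyol carrier, missed the threshold with a larger difference, -5.79 (SE 0.89, adjusted p = 0.0562), and reached 526, 94.3 and 71.8 in the strain lacking COX4. HXT13 has close copies, and how reads were divided among them was not tested.

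For genes named above the difference between the 2 respiratory mutants was 0.46 (SE 0.58, adjusted p = 1) for SPG1, -0.30 (SE 0.30, adjusted p = 1) for DIP2, 0.21 (SE 0.43, adjusted p = 1) for SDH1 and 0.70 (SE 0.35, adjusted p = 1) for HXK2. A p that misses the threshold does not show that the 2 strains changed alike. List medians of the difference ran from -0.24 for ATP synthase to 0.40 for sulfate assimilation and methionine, leaving aside the deleted genes (-0.64) and the lists that hold HXT3 and HXT7.

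**Figure D5:**
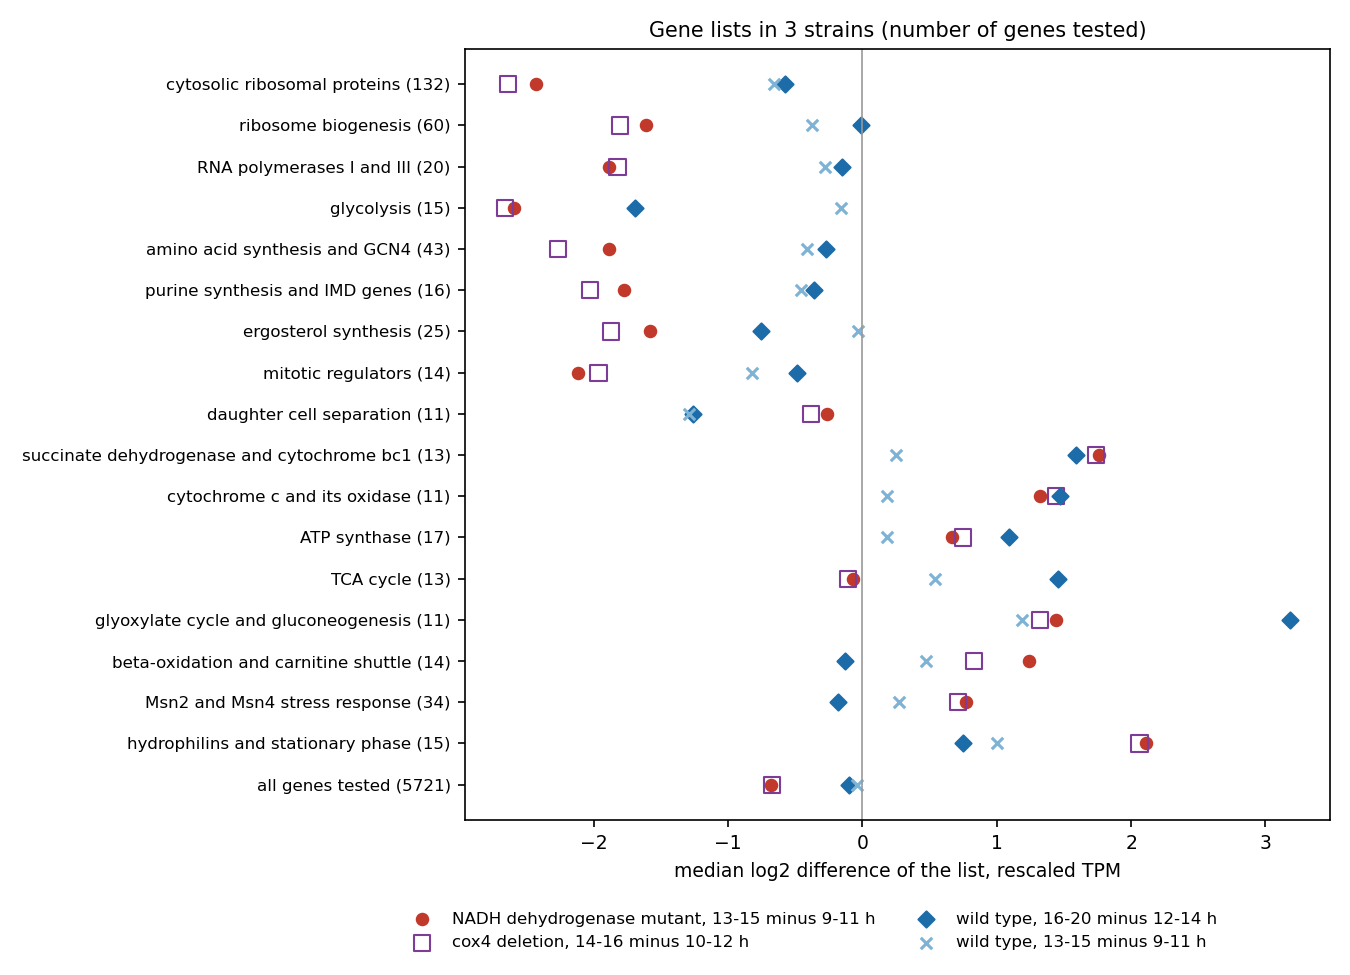
Median log2 difference of gene lists across the loss of HXT3 in the NADH dehydrogenase mutant (filled circles), the strain lacking COX4 (open squares) and wild type (diamonds), and in wild type at the hours of the mutant (crosses). Glyoxylate cycle and gluconeogenesis stood at 1.44 in the NADH dehydrogenase mutant, 1.32 in the strain lacking COX4 and 3.19 in wild type; cytosolic ribosomal proteins at -2.43, -2.64 and -0.58.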

How the data were processed

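RNA was taken by filtration and freezing from cultures of 3 strains over a dense time course, and libraries were made with a stranded kit after removal of ribosomal RNA, per the labels' protocols. The deposited table holds TPM, length-corrected shares of transcripts, for 5803 entries. Salmon 0.9.1, bcl2fastq 2.20.0.422 and the build sacCer3 stand in the submitters' processing notes, while the annotation and the settings are not stated in any label used. TPM keep no read counts, so the depth is unknown and no counting interval is given. In the 7 libraries 52 to 134 entries were at the floor of 0.1.

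Names were matched to the reference annotation for 5779 entries directly and 13 by an older name, and 11 were not matched. TPM were rescaled to the same total over 5780 nuclear protein-coding entries, leaving out 19 mitochondrial and 4 plasmid entries, which held 0.363 to 0.835% of the total. Testing was limited to the 5721 genes whose mean over all 72 libraries reached 1, which left out 82. Differences were computed on log2(TPM + 1) of the deposited values so rescaled, which understates changes of low genes. The test was that of limma 3.58.1 (R 4.3.3) with trended, robust moderation, 2-sided, with Benjamini-Hochberg adjustment over all genes tested, and called at an adjusted p under 0.05 and at least 2-fold. The exact permutation test of 3 against 3 libraries cannot go under 0.10 and was not run. The fits were tested on simulated data with known changes.

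The members and gene lists were chosen with earlier results of these data known. Genes named are the 12 highest and 12 lowest called genes without overlapping windows and with a mean level of 10 or more in the higher window, up to 4 per list with the largest called difference, members that define a list, the 6 highest and 6 lowest at 12 h, and the 5 highest and 5 lowest of each difference between strains. HXT3 and HXT7 stayed in the fits and in the counts over genes and lists, and no test of either is given. Alternatives were other pseudocounts, filters, scalings and moderation, leaving out each library, 12 h counted with the later hours, 13 h alone, and the hour as a block. Median-of-ratios scaling divides each library by the median over genes of its ratio to the geometric mean of all fitted libraries. Promoter windows of 300 bases were read for 5704 genes.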

Additional observations from a re-analysis of the deposited data

Results flagged for a closer look

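The genes below are those for which the change in the NADH dehydrogenase mutant differed most from that in another strain, by limma's test of the difference itself. They were the 5 highest and 5 lowest called genes of each comparison. In each comparison the hours of the mutant were set by its own HXT3, so the differences are not independent of that choice.

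At the same hours as wild type the difference was largest upward for SPG1 (5.52), PHO89 (4.36), SPG4 (4.08), RGI2 (3.96) and ATO2 (3.88) on the log2 scale. It was largest downward for FTR1 (-4.63), for LSO1, a gene of the iron response (-4.61), and for HXT4 (-4.25), ERG3 (-3.99) and BIO3 (-3.74). HXT4 in wild type went from 527, 1584 and 1716 at 9 to 11 h to 2889, 5106 and 4614 at 13 to 15 h. LSO1 was low in the mutant, with 5.09, 10.7 and 7.02 and then 1.53, 0.101 and 0.234, close to the floor of 0.1 at 14 and 15 h. Its wild-type values were 10.7, 1.85 and 24.9 and then 49.2, 37.65 and 37.5.

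Across each strain's own loss of HXT3 the difference from wild type was largest upward for SPG1 (4.95), GRE1 (3.95), SSA3 (3.92), SUC2 (3.90) and SPG4 (3.61). It was largest downward for ICL1 (-4.57), FBP1 (-4.40), PCK1 (-4.35), ADH2 (-4.30) and RKI1, for ribose-5-phosphate isomerase (-4.16). RKI1 in wild type stood at 15.5, 9.76 and 8.83 and then 48.2, 95.6 and 70.5, and in the mutant at 21.9, 22.7 and 12.1 and then 3.90, 4.92 and 7.40.

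Against the strain lacking COX4 the single called gene was YNR071C (-2.97).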

How the results depend on the processing

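Under median-of-ratios scaling 1002 genes were higher and 948 lower between the windows of the mutant, 1300 and 1181 in the outer hours, 677 and 463 in the difference from wild type at the same hours, and 587 and 418 across each strain's own loss of HXT3. Against the strain lacking COX4 the single lower gene became 4 under that scaling, 2 with no filter on low values and 1 to 3 on leaving out a library. For wild type at the same hours, alternatives added after the data were seen gave 0 lower genes under median-of-ratios scaling, with no filter and with a pseudocount of 0.1, and leaving out a library gave 0 to 56 higher and 0 to 54 lower.

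Leaving out a library gave 337 to 415 higher and 2013 to 2368 lower genes between the windows of the mutant. Counting 12 h with the later hours gave 300 and 1538, a pseudocount of 5 gave 322 and 1501, and 13 h alone, which shares its position letter with the earlier window, gave 381 and 1600. Fitting the hour as a replicate block gave 214 and 1757 for the difference from wild type at the same hours, against 213 and 1753. Equal hours of the strains share clock time and no stated culture or batch. Of 173 named genes called, 125 were called under all 16 alternatives in which they were tested, 48 lost the call at least once, 34 of them under median-of-ratios scaling and 28 with 13 h alone, and none changed direction. The named differences between strains kept their call and direction under each alternative run. TPM give no depth, so counting error could not be separated from the spread between hours.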
